A study of Rattus norvegicus with 63 samples.

Results

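The prefrontal cortex (PFC) of rats that had been trained with methylphenidate at 5 mg/kg, without earlier stimulant treatment, was represented by 3 of the 63 Affymetrix rat arrays of the study. They were chosen by their labels (naive cohort, prefrontal cortex, methylphenidate) and were compared with the 5 arrays of the saline controls of the same cohort and region. All rats were male Wistar rats, 4 weeks old on arrival and 6 weeks old when injections began, and all groups used here but the pretreated methylphenidate group were first injected with saline, 2 times daily over 7 days. The methylphenidate rats were then conditioned for place preference with 5 mg/kg and self-administered 0.25 mg of methylphenidate per 0.1 ml infusion, while the control rats were given saline at both steps. The naive amphetamine group used for comparison was conditioned at 5 mg/kg and infused 0.1 mg/kg. In the pretreated cohort, the methylphenidate rats (3 PFC arrays) received methylphenidate at 5 mg/kg in the first 7 days as well, and 3 saline arrays served as controls. The naive striatum gave 3 methylphenidate and 5 saline arrays. Brains were taken a day after the last session, from the stimulant rats with the most robust self-administration, so that these animals had been selected by their behaviour and had not received the drug for a day. The labels speak both of pooled RNA and of 2 to 3 rats per stimulant group, so whether an array holds 1 rat or a pool is not settled by them, and p-values measure the spread between arrays.

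Methylphenidate blocks the reuptake of dopamine and noradrenaline by their transporters, and in the PFC, where the dopamine transporter is sparse, the noradrenaline transporter takes up much of the released dopamine as well. Deep and superficial pyramidal neurons of this region project to striatum, thalamus and other cortex, and their recent firing is recorded in the RNA of immediate early genes such as Fos, Arc and Egr2, which are induced within minutes through CREB and SRF and decay within hours. Stress hormones and the daily clock also set the level of many cortical RNAs, among them Per1, which answers to both.

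The dissection matched its label. The vesicular glutamate transporter of cortical neurons, Slc17a7, had a log2 signal of 10.36, 10.51 and 10.54 in the methylphenidate PFC arrays and of 7.39, 8.19 and 6.99 in the methylphenidate striatum arrays, and the striatal dopamine receptor Drd2 had 7.02, 7.06 and 7.33 in the PFC and 11.81, 11.71 and 11.63 in the striatum.

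The 5 saline arrays were not alike. BioB, a bacterial transcript added at hybridisation as a control, had a log2 signal of 6.42 to 6.61 in the methylphenidate arrays, of 6.18 to 6.57 in saline 4 and 5 and of 9.37 to 9.91 in saline 1 to 3. The 3 amphetamine arrays (6.09 to 6.53) shared the low level. A measure of RNA integrity, the log2 ratio of the 3′ to the 5′ probe set of Gapdh, was 0.773 to 1.04 with methylphenidate, 1.02 to 1.20 in saline 4 and 5 and 0.251 to 0.369 in saline 1 to 3. Saline 4 and 5 differed from saline 1 to 3 in 487 of 8530 genes at a Benjamini-Hochberg adjusted p below 0.05 with limma (5.71%), of which 297 were higher and 190 lower in saline 4 and 5, although both are one treatment group. Leaving out 1 array took that count to 32 (without saline 5), 46 (without saline 4), 139 (without saline 1) or 259 (without saline 2). Comparisons with naive PFC saline are therefore given against all 5 saline arrays and, for most genes, again against saline 4 and 5. Whether the hybridisation, the RNA or the animals set the saline arrays apart was not tested.

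**Figure D1:**
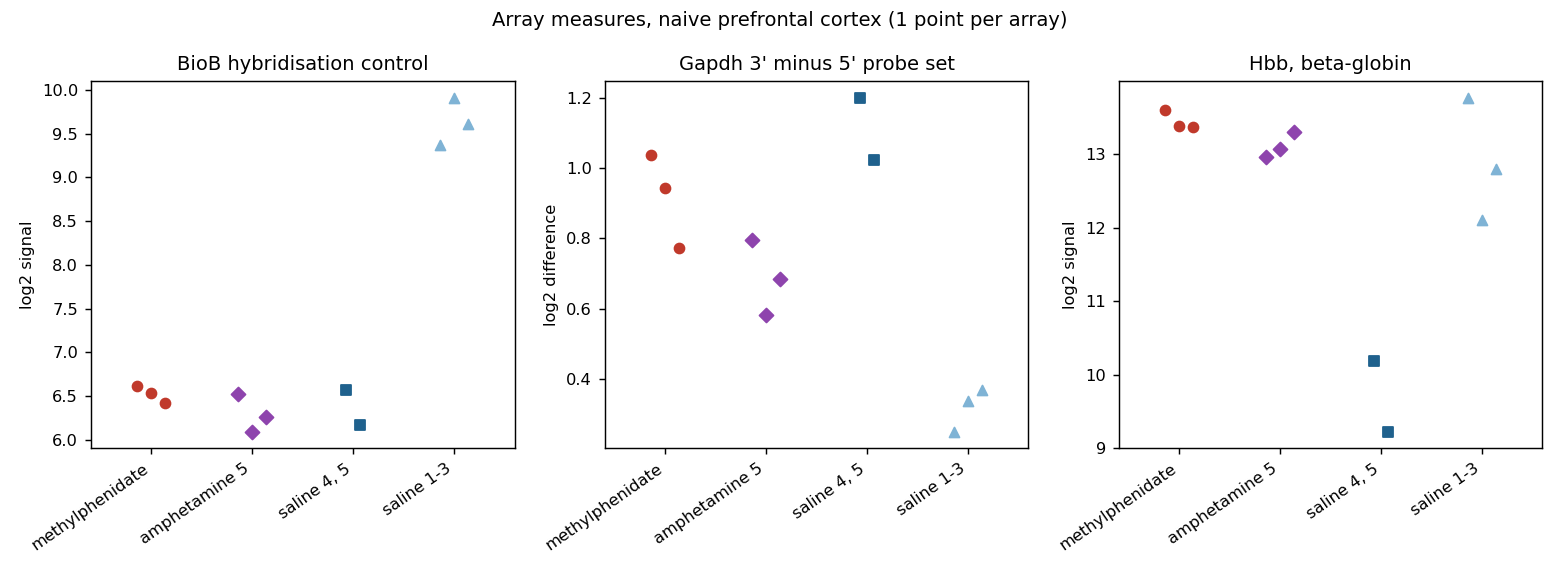
Array measures of the naive PFC, 1 point per array: log2 signal of the BioB hybridisation control (left), log2 ratio of the 3′ to the 5′ Gapdh probe set (middle) and log2 signal of the beta-globin gene Hbb (right), for methylphenidate, amphetamine 5 mg/kg, saline 4 and 5 and saline 1 to 3. Methylphenidate, amphetamine and saline 4 and 5 share a low BioB signal, and saline 4 and 5 have the lowest Hbb signals.

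Against all 5 saline arrays, no gene passed an adjusted p of 0.05 (0%), and 1149 of 8530 genes had an unadjusted p below 0.05 (13.5%), 656 higher and 493 lower with methylphenidate. The smallest adjusted p was 0.108. The count rested on saline 4 and 5: it was 54 without saline 4 and 6 without saline 5. Against saline 1 to 3 alone, an alternative added after the data were seen, 826 genes passed, 502 higher and 324 lower, but these arrays also differ from the methylphenidate arrays in BioB and in the Gapdh ratio, so drug and array measure cannot be told apart there. Against saline 4 and 5, which match in BioB, 2 genes passed (0.0234%), Hbb higher and Rims1 lower, and 385 had an unadjusted p below 0.05 (4.51%).

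The 5 genes with the smallest p on the lower side in the comparison with all saline arrays were Nr2f1, Per1, Crh, Rims1 and Elovl2, all with an adjusted p of 0.108. Nr2f1, the nuclear receptor COUP-TFI that patterns the cortex and marks neuronal subtypes, had a log2 signal of 9.35, 9.41 and 9.34 with methylphenidate, against 10.01, 9.93, 9.92, 9.90 and 9.84 in saline 1 to 5. The groups did not overlap. The difference was -0.55 ± 0.11 (log2, SE) against all saline arrays and -0.50 ± 0.13 against saline 4 and 5 (adjusted p = 0.743). Of all genes, 271 (3.18%) had the 3 methylphenidate arrays below all 5 saline arrays and 357 (4.19%) above.

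Crh, corticotropin-releasing hormone, which cortical interneurons make and which is the main stress peptide of the brain, had 7.44, 7.89 and 7.58 with methylphenidate, against 8.14, 8.34, 8.49, 8.20 and 8.48 with saline. Its difference was -0.70 against either set of saline arrays (SE 0.16 and 0.20), which is 0.618 of the saline level. Elovl2, which elongates polyunsaturated fatty acids and is found in astrocytes, had 10.71, 10.38 and 10.42 with methylphenidate and 11.11, 11.24, 10.90, 10.85 and 11.23 with saline, a difference of -0.56 ± 0.13, and -0.54 against saline 4 and 5. Neither gene overlapped between the groups, and both differences were close to each other with either set of saline arrays.

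Rims1, a scaffold of the presynaptic active zone that docks and primes vesicles, fell to 7.74, 7.69 and 7.76 with methylphenidate, against 8.55 and 8.40 in saline 4 and 5. The difference from these was -0.75 ± 0.13 (adjusted p = 0.0242), or 0.597 of their level. Saline 1 to 3 had 8.21, 8.20 and 7.94, so that the methylphenidate arrays were the lowest of the 8, but against all 5 the adjusted p was 0.108 at -0.53. Against saline 4 and 5 the call was lost when any of the 5 arrays was left out, at -0.82 to -0.67, and also with quantile normalization (adjusted p = 0.0584), with only the arrays compared in the fit (0.136) and with the Gapdh ratio as a covariate (0.181).

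On the higher side, the 5 smallest p belonged to Tmem97, Acer2, Fn3k, Plrg1 and Cop1. Tmem97, the sigma-2 receptor, an endoplasmic reticulum protein of cholesterol handling, had 9.61, 9.49 and 9.65 with methylphenidate and 9.20, 9.17, 9.23, 9.31 and 9.14 with saline, a difference of 0.37 ± 0.08 against all arrays and of 0.36 ± 0.10 against saline 4 and 5. The groups did not overlap. A dimmer second probe set of the gene differed by -0.10 and 0.05, so that the difference rests on 1 probe set. Acer2, an alkaline ceramidase of the Golgi that releases sphingosine from ceramide, had 8.97, 9.65 and 8.65 with methylphenidate and 7.73, 7.96, 7.18, 8.11 and 8.28 with saline, 2.36 times the saline level over all 5 arrays and 1.86 times that of saline 4 and 5 (differences of 1.24 ± 0.27 and 0.90 ± 0.33). Its second probe set gave 1.27 and 0.79.

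Fn3k, which repairs glycated proteins, lay 0.50 ± 0.11 higher than in all saline arrays and 0.29 higher than in saline 4 and 5. Plrg1, a spliceosome protein, lay 0.45 ± 0.10 and 0.29 higher, and Cop1, a ubiquitin ligase that targets c-Jun, 0.53 ± 0.12 and 0.23 higher. In all 3 genes the methylphenidate arrays were above every saline array, and in all 3 saline 4 and 5 were above saline 1 to 3. For Cop1 that difference between the saline arrays was itself called (0.50, adjusted p = 0.0159).

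**Figure D2:**
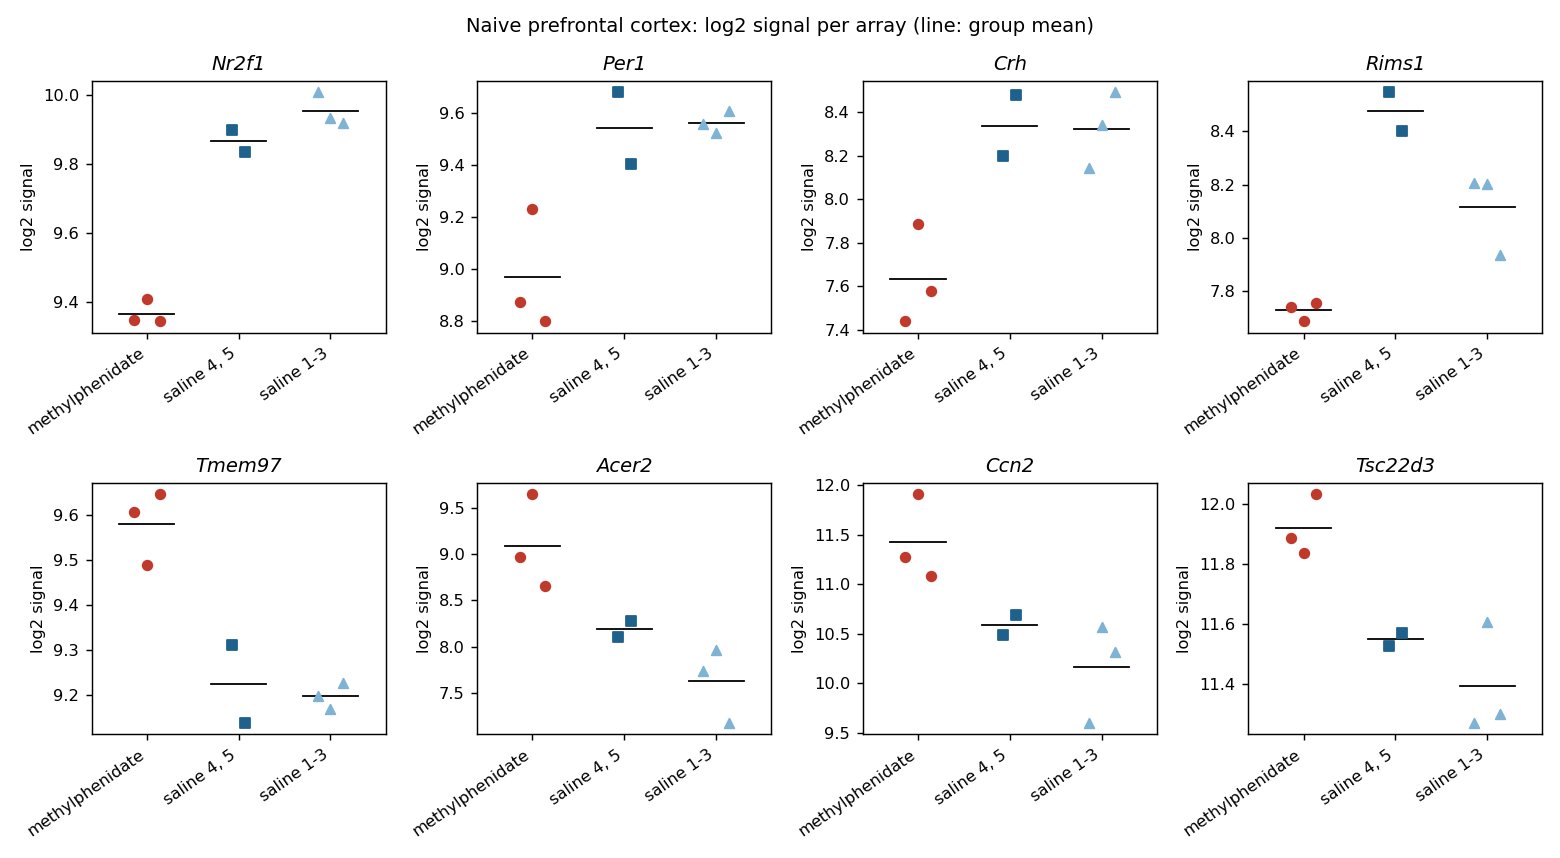
Log2 signal per array in the naive PFC for 8 genes, with methylphenidate, saline 4 and 5 and saline 1 to 3 from left to right and a line at each mean. Nr2f1, Per1, Crh and Rims1 are lower and Tmem97, Acer2, Ccn2 and Tsc22d3 higher in each methylphenidate array than in each saline array, with the 2 sets of saline arrays drawn apart.

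The gene with the smallest p against saline 4 and 5 was Hbb, the beta chain of haemoglobin carried by red blood cells. It rose to 13.61, 13.38 and 13.37 with methylphenidate, against 10.19 and 9.22 in saline 4 and 5, a difference of 3.75 ± 0.39 (adjusted p = 3.68e-06). Saline 1 to 3 had 13.77, 12.10 and 12.80, which spans the methylphenidate arrays, and the difference from all 5 was 1.84 (adjusted p = 0.191). It was saline 4 and 5 that stood apart: they differed from saline 1 to 3 by -3.18 (adjusted p = 9.89e-05). The alpha-globin gene Hba-a3 followed, at 8.87, 9.24 and 9.51 with methylphenidate against 7.41 and 6.56 in saline 4 and 5 and 9.77, 8.76 and 9.33 in saline 1 to 3 (2.22 ± 0.49 against saline 4 and 5, adjusted p = 0.164). Of the 16 blood cell genes listed, 3 were tested (Hbb, Bpgm and Pf4), and their summed signal was 13077 to 15137 with methylphenidate, 2901 to 3362 in saline 4 and 5 and 7003 to 16805 in saline 1 to 3. In bulk tissue, fewer cells of a type and less RNA per cell cannot be told apart, here and in the lists that follow.

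Other genes with small p against saline 4 and 5 also differed between the saline arrays. Dbp, a clock output transcription factor, had 10.56, 10.29 and 10.53 with methylphenidate, 9.77 and 9.68 in saline 4 and 5, and 10.52, 10.47 and 10.51 in saline 1 to 3 (0.73 ± 0.15, adjusted p = 0.112, and 0.27 against all 5). Mtus1, a microtubule-associated protein, had a difference of 1.00 against saline 4 and 5 and 0.33 against all 5, which its other probe sets did not share (-0.35 and 0.02 against saline 4 and 5), and P4ha1, a subunit of the collagen prolyl hydroxylase, 0.55 and 0.22. On the lower side, Trmt10c, a subunit of mitochondrial RNase P, had -0.49 and -0.15. In each of these 4 genes saline 4 and 5 had been called different from saline 1 to 3 (adjusted p = 0.00509 for Dbp, 0.00366 for Mtus1, 0.0177 for P4ha1 and 0.0132 for Trmt10c).

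Immediate early and activity-induced genes lay mostly lower with methylphenidate in both comparisons with saline. The list had 46 genes, of which 30 were tested. Of these, 21 lay below 0 against all saline arrays and 27 against saline 4 and 5, with medians of -0.24 and -0.23 beside 0.02 and 0.01 over all genes. Their mean log2 signal was 9.58 to 9.75 with methylphenidate, 9.98 to 10.03 in saline 4 and 5 and 9.52 to 10.22 in saline 1 to 3, so that it overlapped with saline 1 to 3 through saline 1. No member passed the adjusted threshold. At an unadjusted p below 0.05, 1 was higher and 7 lower in either comparison, beside 7.69% and 5.78% of all genes against all saline arrays, and 2.49% and 2.03% against saline 4 and 5.

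Many of these genes are induced through CREB, whose binding element TGACGTCA, or its shorter core TGACG, can lie in their promoters. The promoters of the 3 list members that are named below and that the reference table holds, Dusp1, Nr4a1 and Egr2, are printed from 250 bases before to 50 after the start, and that of Per1 for comparison. They were taken from RefSeq on build GRCr8 at chr10:17184603-17184902 (plus strand), chr7:134259888-134260187 (plus), chr20:21054392-21054691 (minus) and chr10:54304126-54304425 (plus). Capitals mark TGACG on either strand:
Dusp1: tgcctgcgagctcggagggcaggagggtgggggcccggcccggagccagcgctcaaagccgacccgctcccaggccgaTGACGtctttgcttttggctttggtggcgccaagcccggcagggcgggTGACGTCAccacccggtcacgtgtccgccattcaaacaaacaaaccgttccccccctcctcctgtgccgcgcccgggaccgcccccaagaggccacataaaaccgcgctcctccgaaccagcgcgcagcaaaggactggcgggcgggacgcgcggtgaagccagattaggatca
Nr4a1: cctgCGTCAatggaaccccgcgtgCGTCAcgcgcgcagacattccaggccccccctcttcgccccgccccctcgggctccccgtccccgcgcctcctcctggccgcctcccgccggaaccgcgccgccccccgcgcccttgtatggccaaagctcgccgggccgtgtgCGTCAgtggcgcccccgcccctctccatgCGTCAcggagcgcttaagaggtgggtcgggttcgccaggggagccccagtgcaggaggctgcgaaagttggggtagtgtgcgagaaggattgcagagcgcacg
Egr2: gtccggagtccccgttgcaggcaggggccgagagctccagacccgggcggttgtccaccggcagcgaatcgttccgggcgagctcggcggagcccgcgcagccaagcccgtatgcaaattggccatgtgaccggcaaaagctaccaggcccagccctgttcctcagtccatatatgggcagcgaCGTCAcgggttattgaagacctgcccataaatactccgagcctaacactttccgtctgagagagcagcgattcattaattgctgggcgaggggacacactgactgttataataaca
Per1: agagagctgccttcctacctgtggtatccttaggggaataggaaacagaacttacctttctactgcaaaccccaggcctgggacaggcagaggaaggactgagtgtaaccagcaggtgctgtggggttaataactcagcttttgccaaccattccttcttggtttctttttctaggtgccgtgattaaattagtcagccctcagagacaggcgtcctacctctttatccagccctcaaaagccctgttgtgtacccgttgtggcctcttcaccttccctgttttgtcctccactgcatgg
The Dusp1 window held 3 cores, of which a pair made up 1 full element, at positions -172 to -121 from the start, the Nr4a1 window 4 cores (-246 to -53) and the Egr2 window 1 (at -66). The Per1 window held none, which says only that these letters are not in this window. Of the 22 tested activity genes with an entry, 14 (63.6%) had a core and 6 (27.3%) the full element, beside 21.2% and 1.83% of 33469 promoters of the same length. A match is a description of the letters, not evidence of a site.

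Fos, the partner of Jun in AP-1, had a log2 signal of 9.15, 9.39 and 9.36 with methylphenidate, against 9.50, 11.21, 11.28, 10.75 and 10.42 in saline 1 to 5. All 3 methylphenidate arrays were below every saline array, but saline 1 was close to them. The difference was -1.33 ± 0.35 against all saline arrays, 0.398 of the saline level (unadjusted p = 0.000676, adjusted p = 0.148), and -1.28 ± 0.44 against saline 4 and 5. Egr2, a zinc-finger transcription factor, had 7.56, 8.15 and 8.07 with methylphenidate and 7.54, 8.93, 9.94, 9.24 and 9.02 with saline. Arc, which removes AMPA receptors from active synapses, had 7.93, 8.22 and 8.73 with methylphenidate and 8.16, 9.13, 9.66, 9.63 and 9.16 with saline. In both genes only saline 1 was as low as the methylphenidate arrays, and the differences were -1.01 and -0.86 against all saline arrays, and -1.20 and -1.11 against saline 4 and 5.

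Nr4a1, an orphan nuclear receptor, had 8.21, 8.60 and 8.87 with methylphenidate and 8.74, 9.18, 9.79, 9.34 and 9.29 with saline (-0.71 ± 0.20, and -0.76 against saline 4 and 5). Dusp1, the phosphatase that ends MAP kinase signalling, had 9.91, 10.06 and 10.49 against 10.38, 10.92, 11.30, 10.91 and 10.76 (-0.70 ± 0.21, and -0.68). Again saline 1 was the lowest control. Not all members showed a large difference: Egr1, which is induced beside Egr2, had -0.20 and -0.24 against the 2 sets of saline arrays, the synaptic scaffold gene Homer1 -0.06 and -0.15, and the growth factor Bdnf -0.24 and -0.43. The value of Homer1 depended on the probe set. Its other probe sets gave -0.53 and -0.37, -0.11 and -0.18, 0.05 and 0.18, and 0.08 and 0.01. Ier3, an inhibitor of cell death, was the 1 member on the higher side at an unadjusted p below 0.05 in either comparison, with 0.35 and 0.58.

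**Figure D3:**
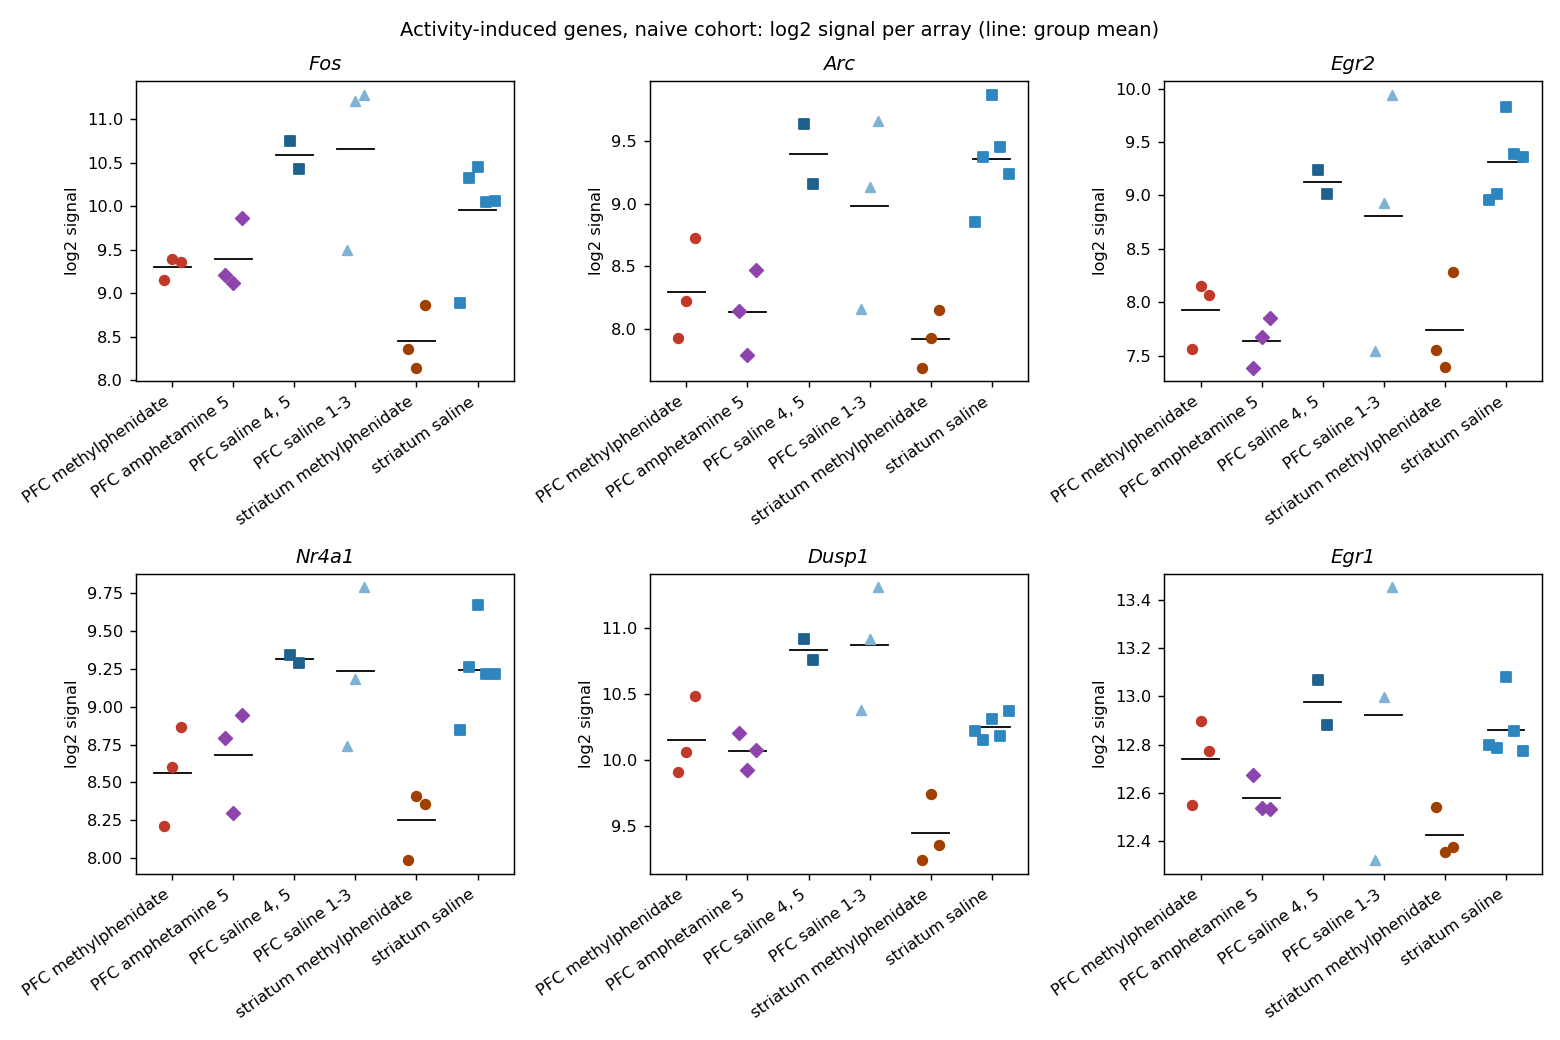
Log2 signal per array of 6 activity-induced genes in the naive cohort: PFC with methylphenidate, amphetamine 5 mg/kg, saline 4 and 5 and saline 1 to 3, then striatum with methylphenidate and with its 5 saline arrays; the line is the group mean. The methylphenidate and amphetamine PFC arrays overlap for each gene, 1 array of saline 1 to 3 is as low as or close to them, and the striatal methylphenidate arrays are all below the striatal saline arrays for each gene drawn.

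Several signalling genes of dopamine and noradrenaline had a dim RNA signal in this tissue, among them those of the transporters that the drug blocks. The arrays do not measure the transporter proteins. Drd2, Drd4, Drd5, the transporter genes Slc6a2 and Slc6a3, and the adrenergic receptors Adra1a and Adra2c were below the signal filter and were not tested. The D1 receptor gene Drd1 differed by 0.01 ± 0.21 and 0.08 ± 0.27 from the 2 sets of saline arrays, and the alpha-2A adrenergic receptor gene Adra2a by 0.04 and 0.12, with intervals that include changes in either direction (95% intervals of -0.43 to 0.45 for Drd1 and -0.30 to 0.37 for Adra2a against all saline arrays). Maoa, the monoamine oxidase of noradrenaline and serotonin, was at 11.51, 11.46 and 11.51 with methylphenidate and at 11.50 and 11.49 in saline 4 and 5, but at 10.98, 11.03 and 11.10 in saline 1 to 3, so that its difference of 0.28 from all saline arrays was 0.00 within the low BioB arrays. Maob, the glial form, lay 0.25 higher than in all saline arrays and 0.46 ± 0.16 higher than in saline 4 and 5. Of the 9 members tested of 37 listed, 6 lay above 0 in either comparison.

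Genes of glutamate synapses lay mostly lower. Of the 29 tested receptor and scaffold genes of 42 listed, 23 were below 0 against all saline arrays (median -0.17) and 25 against saline 4 and 5 (median -0.11), where 44.9% and 46.4% of all genes were below 0 and 55.1% and 53.6% above. None passed the adjusted threshold, and 5 and 1 had an unadjusted p below 0.05 on the lower side, beside 5.78% and 2.03% of all genes. Grin2b, the NMDA receptor subunit GluN2B, had 8.33, 8.88 and 8.52 with methylphenidate against 8.97, 9.30, 9.29, 9.03 and 9.21 with saline, below every control (-0.58 ± 0.18, and -0.54 against saline 4 and 5). Dlgap3, a postsynaptic scaffold also known as SAPAP3, differed by -0.40 and -0.30, and the kainate receptor subunit gene Grik5 by -0.52 from all saline arrays but by -0.09 from saline 4 and 5. A dimmer second probe set of Dlgap3 gave -0.53 and 0.15.

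On the presynaptic side, 24 of 30 tested vesicle release genes were below 0 against all saline arrays (median -0.09) but 17 against saline 4 and 5 (median -0.03). Besides Rims1, Slc17a7 had 10.36, 10.51 and 10.54 with methylphenidate against 11.28, 11.21, 10.999, 10.67 and 11.02 with saline, a difference of -0.57 ± 0.15 from all saline arrays and of -0.37 ± 0.18 from saline 4 and 5. The groups did not overlap, and its second probe set gave -0.51 and -0.26. Syn1, which tethers vesicles to the cytoskeleton, had -0.42 and -0.19, and its second probe set -0.28 and 0.16.

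Counts of inhibitory genes depended on the choice of controls. Of the 16 tested genes of GABA synthesis, transport and reception, 9 lay below 0 against all saline arrays (median -0.01) and 15 against saline 4 and 5 (median -0.12). Slc32a1, the vesicular GABA transporter, had 9.10, 9.26 and 9.26 with methylphenidate, 9.60 and 9.55 in saline 4 and 5 and 9.28, 9.24 and 9.38 in saline 1 to 3. Gad2, a GABA-synthesising enzyme, differed by -0.77 ± 0.36 from saline 4 and 5 and by -0.21 from all saline arrays. In both genes it was saline 4 and 5 that were highest of the controls.

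Of the 18 tested interneuron markers and neuropeptide genes, 14 lay below 0 in either comparison (medians -0.11 and -0.18). Besides Crh, its binding protein gene Crhbp had 7.97, 7.89 and 7.90 with methylphenidate against 8.42, 8.71, 8.79, 8.31 and 8.19 with saline (-0.56 ± 0.20, and -0.33 against saline 4 and 5). The neuropeptide Y gene Npy differed by -0.26 and -0.19, with every methylphenidate array below every saline array, and Vip, of a disinhibitory interneuron class, by -0.17 and -0.29. Sst (-0.11 and -0.19) and Pvalb (0.04 and 0.02), the markers of the largest interneuron classes, and Penk (0.10 and 0.33), the enkephalin precursor, overlapped between methylphenidate and saline 1 to 5.

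Excitatory neuron identity genes lay in both directions. Of 32 tested cortical markers, 14 lay above and 18 below 0 against all saline arrays, and 11 above and 21 below against saline 4 and 5 (median -0.12). An unadjusted p below 0.05 was reached against all saline arrays by 4 on the higher and 5 on the lower side, beside 7.69% and 5.78% of all genes, and against saline 4 and 5 by 2 on either side, beside 2.49% and 2.03%. Ccn2, an extracellular matrix protein that marks the subplate remnant below layer 6 and is also made by blood vessels, had 11.28, 11.91 and 11.09 with methylphenidate against 9.60, 10.57, 10.32, 10.49 and 10.69 with saline, 2.13 times the saline level (1.09 ± 0.25, adjusted p = 0.108) and 1.78 times that of saline 4 and 5. Rprm, a p53 target that marks corticothalamic neurons of layer 6, had 11.49, 11.29 and 11.54 against 11.09, 10.78, 10.96, 11.04 and 10.87 (0.50 ± 0.12, and 0.49). Both genes were above every saline array. Bhlhe22, of upper-layer neurons, differed by -0.17 from all saline arrays and by -0.33 from saline 4 and 5. The summed signal of the cortical list was 85152 to 90156 with methylphenidate, 86649 to 90151 in saline 4 and 5 and 81674 to 84406 in saline 1 to 3, and that of the 21 striatal projection neuron markers was 20489 to 20900, 20453 to 22246 and 19051 to 23625 in the same order.

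Axon guidance genes also lay lower in number: 29 of 36 tested were below 0 against all saline arrays and 27 against saline 4 and 5 (medians -0.13 and -0.10). Sema4b, a membrane semaphorin, had 7.44, 7.61 and 7.56 with methylphenidate against 8.19, 7.98, 8.20, 7.84 and 7.95 with saline, with no overlap (-0.50 ± 0.13, and -0.36). Nrp2, a semaphorin co-receptor, had -0.58 and -0.30, and the receptor gene Plxnb2 -0.38 and -0.20. Voltage-gated ion channels were below 0 in 24 of 35 and 29 of 35 genes (medians -0.08 and -0.14).

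**Figure D4:**
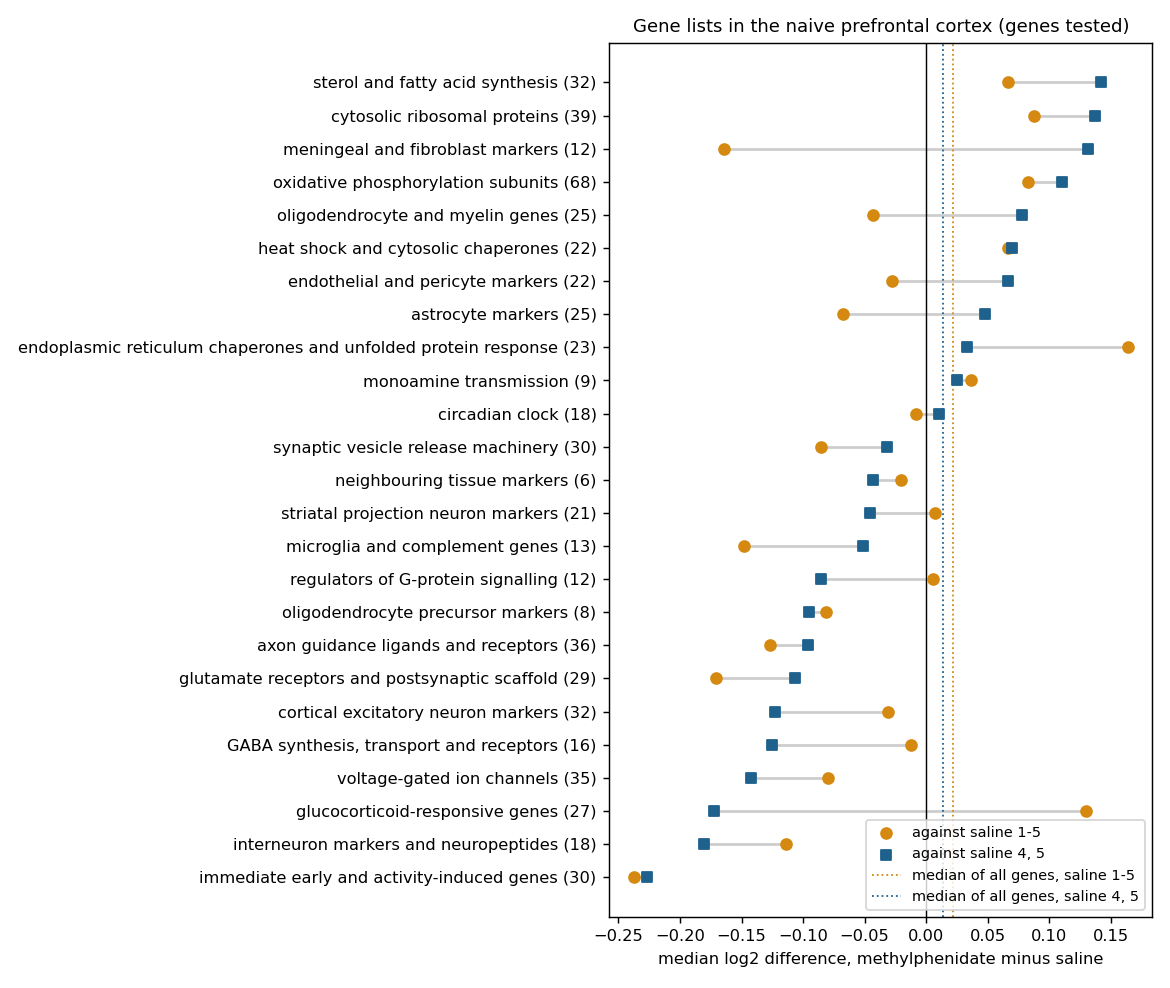
Median log2 difference, methylphenidate minus saline, of each gene list with 5 or more genes tested in the naive PFC (number tested in parentheses), against saline 1 to 5 (circles) and against saline 4 and 5 (squares); dotted lines are the medians of all genes. Activity-induced genes are lowest in both, at -0.24 and -0.23, and glucocorticoid-responsive genes lie on opposite sides, at 0.13 and -0.17.

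Glucocorticoid-responsive genes lay on opposite sides with the 2 sets of controls. Of 27 tested, 21 lay above 0 against all saline arrays (median 0.13) but 5 against saline 4 and 5 (median -0.17), and 12 of them were called higher in saline 4 and 5 than in saline 1 to 3, as were 297 of all genes (3.48%). Sgk1, a kinase that corticosteroids induce, had 11.16, 11.42 and 12.40 with methylphenidate, 11.89 and 12.17 in saline 4 and 5 and 10.07, 10.52 and 10.34 in saline 1 to 3. The cell cycle inhibitor gene Cdkn1a had -0.17 against all saline arrays and -0.81 against saline 4 and 5, and Fkbp5, a co-chaperone of the receptor, 0.17 and -0.17. A few members kept their side: Tsc22d3, which encodes the anti-inflammatory protein GILZ, had 11.89, 11.84 and 12.03 with methylphenidate against 11.27, 11.61, 11.30, 11.53 and 11.57 with saline, above every control (0.46 ± 0.12, and 0.37), and the antiproliferative gene Tob2 had -0.37 and -0.51.

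Per1, a repressor of the clock that glucocorticoids and neuronal activity also induce, differed from saline in opposite directions in naive and pretreated rats. In the naive PFC it had 8.87, 9.23 and 8.80 with methylphenidate against 9.56, 9.53, 9.61, 9.68 and 9.40 with saline (-0.59 ± 0.13, adjusted p = 0.108, and -0.57 against saline 4 and 5). In the pretreated PFC it rose to 9.31, 9.53 and 9.34 with methylphenidate, against 8.91, 8.39 and 8.41 with saline (0.83, adjusted p = 0.00996). The difference between these effects was -1.41 ± 0.20 (adjusted p = 0.000643), and it passed with any 1 of the 14 arrays left out (-1.58 to -1.32). The larger part of it lay between the controls: naive saline arrays were at 9.40 to 9.68 and pretreated saline arrays at 8.39 to 8.91. Methylphenidate arrays were closer, at 8.80 to 9.23 in naive and 9.31 to 9.53 in pretreated rats. BioB also differed between the cohorts, at 9.11 to 10.1 in the pretreated methylphenidate and 9.29 to 9.51 in the pretreated saline arrays. With saline 4 and 5 as the only naive controls, which are alike in BioB to the naive methylphenidate arrays, the difference was -1.40 (limma, adjusted p = 0.00404). The part of BioB in the levels of the 2 cohorts was not tested.

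Of the 18 clock genes tested, 3 lay below 0 in both naive comparisons and above 0 in the pretreated PFC: Per1, Nr1d1, the nuclear receptor REV-ERB alpha, and Bhlhe40, a repressor. Nr1d1 differed by -0.30 and -0.29 from the 2 sets of naive saline arrays and by 0.50 in the pretreated PFC, and its difference between cohorts was -0.79 (adjusted p = 0.268). Bhlhe40 differed by -0.19 and -0.27 and by 0.51 (-0.70 between cohorts, adjusted p = 0.428). Some other clock genes lay above 0 in both cohorts. Per2, a second repressor, had 10.27, 10.59 and 10.35 with methylphenidate against 9.75, 10.22, 10.27, 10.03 and 9.99 with saline in the naive PFC (0.35 ± 0.15, adjusted p = 0.326), and it rose by 0.95 in the pretreated PFC (adjusted p = 0.0111). Nr1d2, the nuclear receptor REV-ERB beta, lay 0.21 and 0.27 higher than the 2 sets of naive saline arrays, with no overlap, and rose by 0.51 in the pretreated PFC (adjusted p = 0.00777). Cry1 had 0.47 against all naive saline arrays and 0.17 against saline 4 and 5. Of the 18, 9 lay above 0 in either naive comparison, while 13 did in the pretreated PFC, where 4 were called higher, beside 8 of all genes in either direction (0.0938%). Per1 was the 1 clock gene for which the test of the difference between cohorts passed.

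**Figure D5:**
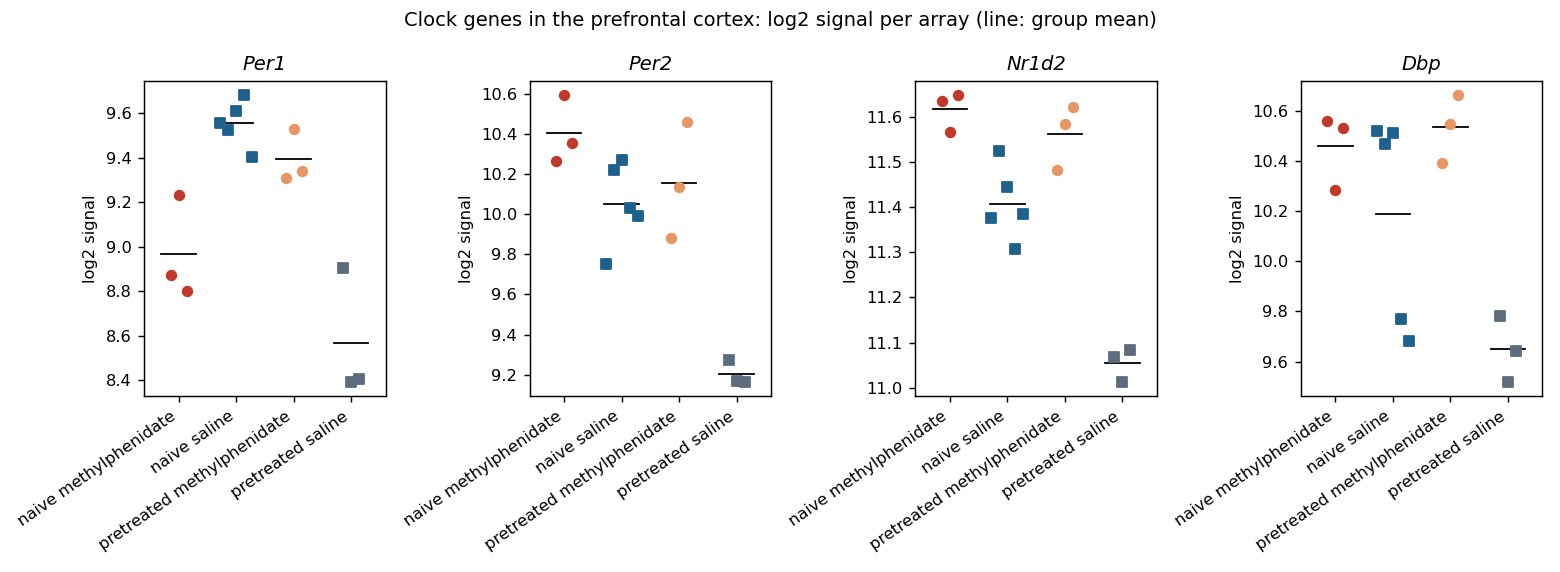
Log2 signal per array of 4 clock genes in the PFC, with methylphenidate left of saline in the naive and then in the pretreated cohort; the line is the group mean. Per1 is below saline in the naive and above it in the pretreated cohort, while Per2 and Nr1d2 are above saline in both by their means, and saline levels differ between cohorts.

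Over all genes, 2 had an effect of methylphenidate that differed between naive and pretreated PFC (0.0234%), and 884 had an unadjusted p below 0.05 (10.4%). The other was LOC100911627, a predicted gene to which no role is given here. It had 9.24, 9.41 and 9.05 with methylphenidate in naive rats against 8.85, 8.67, 8.53, 9.17 and 8.78 with saline, and fell to 8.47, 8.40 and 8.33 in pretreated rats, against 9.76, 9.70 and 8.97 with saline. The difference was 1.51 (adjusted p = 0.0196), it passed in 6 of the 14 runs that left out 1 array, and with saline 4 and 5 as the only naive controls it was 1.34 (adjusted p = 0.111). Next by p were Rims1 (-0.87, adjusted p = 0.0901), which was 0.34 higher than saline in the pretreated PFC, and Cbs, an enzyme of hydrogen sulfide and cysteine synthesis (-0.95, adjusted p = 0.0901), which was called higher in the pretreated PFC (0.85, adjusted p = 0.00996) and differed by -0.09 in the naive PFC. With saline 4 and 5 as the only naive controls, the difference of Rims1 was -1.09 (adjusted p = 0.00433). On the higher side, the cilium gene Cfap20 had 0.54 and the redox sensor gene Nmral1 1.11, both with an adjusted p of 0.192.

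Amphetamine at the same conditioning dose offered a comparison free of the saline arrays, on arrays with the same low BioB, although the infused doses differ (0.25 mg of methylphenidate and 0.1 mg/kg of amphetamine), so that the doses are not matched throughout. The Gapdh ratio was not matched either, at 0.584 to 0.795 with amphetamine and 0.773 to 1.04 with methylphenidate, and its part was not tested. No gene differed at the adjusted threshold (0%), and 441 had an unadjusted p below 0.05 (5.17%). The smallest p belonged to Dnal1, a dynein light chain of cilia, at 8.74, 8.81 and 8.93 with methylphenidate against 10.14, 9.96 and 9.52 with amphetamine (-1.04, adjusted p = 0.832), followed on the lower side by Abca1, a cholesterol exporter (-0.75), and Grin2b (-0.74), which had 9.37, 9.28 and 9.31 with amphetamine. Higher with methylphenidate were Tmem97 (0.35), Phyh, a peroxisomal enzyme (0.34), and Tpi1, of glycolysis (0.33). Tmem97 had 9.20, 9.16 and 9.34 with amphetamine, all below the methylphenidate arrays, and all 3 Grin2b values with amphetamine were above the methylphenidate arrays, so that neither gene overlapped with amphetamine or with saline. Both genes were named for a small p and the same methylphenidate arrays enter each comparison, so this is no separate support. The second probe set of Tmem97 differed from the 2 sets of saline arrays by -0.10 and 0.05.

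Activity genes showed no called difference between the stimulants. Fos had 9.15, 9.39 and 9.36 with methylphenidate and 9.21, 9.12 and 9.87 with amphetamine (-0.10, 95% interval -0.89 to 0.70), and Per1 differed by -0.12 between them. Of the 30 activity genes, 17 lay above and 13 below 0 in this comparison, where 55.6% of all genes lay above. Slc17a7 had 11.03, 11.28 and 11.004 with amphetamine, and its difference of -0.64 did not pass the threshold either (adjusted p = 0.832).

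In the striatum of the same treatment group, on separate arrays, Fos and Arc were lower as well. Whether the arrays of the 2 regions came from the same rats was not tested, so the regions may not be independent. Fos had 8.36, 8.14 and 8.86 with methylphenidate in the striatum against 8.89, 10.32, 10.45, 10.05 and 10.06 with saline, a difference of -1.50 (adjusted p = 0.0995 in that region's fit), and Arc fell by 1.44 there (adjusted p = 0.0209), where 0.129% of all genes were called. No gene had an effect that differed between PFC and striatum at the adjusted threshold (0%), and 299 had an unadjusted p below 0.05 (3.51%). The smallest p were those of Zfp365 (0.86), Septin3 (0.87) and Med19 (0.51) on the side higher in the PFC, and of Purg, a relative of the DNA-binding protein Pur-alpha (-0.68, adjusted p = 0.890), Mon2 (-0.62) and C4h2orf68 (-0.62) on the lower side. Second probe sets of Septin3, Mon2 and C4h2orf68 differed from saline in the PFC alone by -0.41, 0.004 and 0.02, so these names rest on 1 probe set each. The values of this paragraph so far are against all 5 saline arrays of a region. In the striatum BioB split these as well, at 6.85 and 6.65 in saline 4 and 5 and 9.77 to 9.92 in saline 1 to 3. With only saline 4 and 5 as controls in both regions, Zfp365 had 0.70, Septin3 0.47, Med19 0.45, Purg -0.48, Mon2 -0.61 and C4h2orf68 -0.69. No gene passed there, and 203 had an unadjusted p below 0.05. The description of 1 of the 5 striatal saline arrays names the PFC while its title names the striatum; its Drd2 signal of 11.92 lay within the 11.62 to 12.04 of the others. An array labelled as striatum of the methamphetamine 1.25 mg/kg group had a Slc17a7 signal of 10.78, against 6.15 to 9.09 in the other 31 striatal arrays and 10.14 to 11.42 in the PFC, and a Drd2 signal of 7.603, against 11.21 to 12.23 and 6.30 to 8.24. It is in neither group compared but in the spread behind these p-values. Without it, 16 genes in place of 11 were called in the striatum, the adjusted p was 0.0841 for Fos and 0.0170 for Arc, and 0 genes differed between the regions (339 at an unadjusted p below 0.05).

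Housekeeping groups lay mostly above 0, by small amounts. Of 68 oxidative phosphorylation subunits tested, 56 lay above 0 against all saline arrays and 64 against saline 4 and 5 (medians 0.08 and 0.11), and 67 against amphetamine (median 0.22). Of 39 ribosomal protein genes, 32, 38 and 38 did (medians 0.09, 0.14 and 0.28). No member passed, and their mean log2 signal ranges overlapped between methylphenidate (12.47 to 12.69), saline 4 and 5 (12.39 to 12.57) and saline 1 to 3 (12.44 to 12.63) for the first list. Members of such lists share the scaling of their array, so their counts are not independent.

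Endoplasmic reticulum chaperones lay above 0 in 20 of 23 genes against all saline arrays (median 0.16) and in 14 against saline 4 and 5 (median 0.03). Creld2, a stress-induced disulfide isomerase, had 8.73, 8.63 and 8.61 with methylphenidate, above all saline arrays (8.50, 8.45, 8.44, 8.24 and 8.13), with differences of 0.30 ± 0.10 and 0.47 ± 0.12. Manf, a secreted factor of the same response, had 0.31 and 0.43, and the disulfide isomerase gene Pdia6 0.07 and 0.27. Of 22 cytosolic chaperones, 17 and 14 lay above 0, with Dnajb4 at 0.42 and 0.10 and Chordc1 at 0.28 and 0.26. Sterol and fatty acid genes lay above 0 in 20 and 27 of 32 genes: the farnesyl diphosphate synthase gene Fdps had 0.24 and 0.35, the elongase gene Elovl6 0.34 and 0.39, the desaturase gene Fads2 0.14 and 0.39, and Cyp51, of cholesterol synthesis, 0.24 and 0.13. Second probe sets gave 0.09 and 0.11 for Elovl6, and -0.21 and 0.16 for Cyp51.

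Glial and vascular genes gave no common direction. Of 25 tested myelin and oligodendrocyte genes, 14 lay below 0 against all saline arrays and 9 against saline 4 and 5, while 4 had all methylphenidate arrays below all saline arrays and 1 had them above, beside 3.18% and 4.19% of all genes. The medians of the list were -0.04 and 0.08. Those below included Adamts4, a protease of these cells (8.99, 8.85 and 8.69 against 9.47, 9.09, 9.48, 9.41 and 9.23, -0.49 ± 0.15), Nfasc, of the node of Ranvier (-0.47), and Mag, of the inner myelin layer (-0.43). Other probe sets of Nfasc gave -0.25, -0.24, -0.23 and 0.39 against all saline arrays. Pnlip, the pancreatic lipase gene, differed by -0.30 in either comparison, with overlap. Astrocyte markers were below 0 in 15 of 25 genes and in 8 against saline 4 and 5: Slc4a4, a bicarbonate transporter, had -0.24 and -0.28, the growth factor receptor gene Fgfr3 -0.24 and -0.28, and Clu, the apolipoprotein clusterin, -0.37 and 0.11. A second probe set of Clu gave -0.09 and -0.21. Microglial genes were below 0 in 11 of 13 and 8 of 13, with the complement gene C1qb at -0.59 and -0.09 and the receptor gene Csf1r at -0.38 and -0.04.

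Of 8 tested oligodendrocyte precursor markers 6 were below 0 in either comparison, of 12 regulators of G-protein signalling 6 and 9, of 6 markers of neighbouring tissues 3 and 4, and of 2 choroid plexus markers 1 and 1.

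Among vessel-wall genes, the higher ones included Cldn5, the tight junction protein of brain endothelium, with 11.59, 11.73 and 11.17 with methylphenidate against 11.37, 10.86, 10.84, 10.84 and 11.02 with saline (0.51 ± 0.18, and 0.57), and Vwf, the clotting factor of endothelial cells, with 8.42, 9.31 and 7.77 against 7.12, 7.46, 7.50, 7.72 and 7.21 (1.10 ± 0.40, and 1.04). Without methylphenidate array 2 the differences of Vwf were 0.69 and 0.63, and that of Dcn, a fibroblast marker, from all saline arrays was 0.28. The barrier exporter gene Abcg2 differed in the other direction against saline 4 and 5 (-0.95, and -0.34 against all), and Bsg had -0.01 and 0.33. Over the 22 tested, 9 and 13 lay above 0. Among 12 meningeal and fibroblast markers, 5 and 10 lay above 0, and 7 and 2 below (medians -0.16 and 0.13). Those named here all lay on the higher side: Vim at 0.53 and 0.72, Dcn at 0.47 and 0.60, Mgp at 0.44 and 0.71, and Gjb2 at 0.30 and 0.62. The summed signal of the endothelial list was 17512 to 22133 with methylphenidate, 18217 to 19186 in saline 4 and 5 and 19104 to 22040 in saline 1 to 3, and that of the meningeal list 17111 to 23537, 17182 to 17634 and 20276 to 24670 in the same order. Methylphenidate array 2 had the highest Ccn2, Vwf, Cldn5, Vim and Acer2 signals of the 8 arrays, and whether its vessels or meninges account for the levels of Ccn2 and Acer2 was not tested.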

How the data were processed

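RNA of rat prefrontal cortex (PFC) and striatum had been measured on Affymetrix arrays of 31099 probe sets. The deposited intensity values were MAS5 signals, per the submitters' processing notes. The version and detection calls are not given in the sources used here, and the trimmed mean was 500.1 to 500.2 on every array. MAS5 subtracts mismatch probes, so that dim probe sets scatter widely. The number of arrays, not read depth, limits the precision.

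Signals were floored at 1 and taken as log2. Of the probe sets, 20832 had 1 gene symbol, 436 had several and 9831 had none. Each of 14217 genes was represented by its probe set with the highest mean, and the lowest 40% were left out, which left 8530. Other probe sets of named genes were checked, and those of some genes differed in sign or size. Groups came from the labels. The main test was limma 3.58.1 (R 4.3.3) with an intensity trend over all 31 PFC arrays (both regions for the comparison with striatum), with Benjamini-Hochberg adjustment over all genes, and a gene rose or fell where its adjusted p was below 0.05. The 2 sets of saline arrays were separated by BioB, not by an outcome.

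The text names the genes with the smallest p in each comparison (5 per direction against saline, 3 in the other comparisons), up to 3 members of each of 27 gene lists by p in either comparison with saline, the most abundant markers of other cell types, and a fixed set of genes. The members and lists were chosen with earlier results of these data known. Bpgm, Pf4, Nr1d1 and Bhlhe40 were named after their values were seen. The fits were checked on simulated data. Alternatives changed the normalization, floor, filter, probe sets, variance model, arrays, RNA integrity covariate, BioB block and replicate block. Same-numbered methylphenidate and saline arrays had correlations of their deviations of 0.015, 0.115 and -0.113, so the numbers were not taken to pair arrays of these groups. Same-numbered methylphenidate arrays of PFC and striatum had 0.029, 0.316 and 0.363. The comparison of the regions took all arrays as independent, and whether the regions share rats was not tested. Promoter sequences came from RefSeq, build GRCr8, and 22 of the 30 tested activity genes had an entry.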

Additional observations from a re-analysis of the deposited data

Results flagged for a closer look

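The effect of methylphenidate on Per1 differed between naive and pretreated PFC by -1.41 on the log2 scale (limma, adjusted p = 0.000643), with the 3 methylphenidate arrays below all saline arrays in the naive cohort and above all in the pretreated cohort. The larger part of this difference lay between the saline arrays of the 2 cohorts. The effect on LOC100911627 differed by 1.51 (limma, adjusted p = 0.0196), with overlapping groups in the naive cohort.

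The Zfp365 signal of saline 5 lay apart from the other naive PFC saline arrays: its gap to the nearest was 0.745 of the range of the 5, past the critical value of Dixon's test, which chance exceeds in about 1 group of 20. The test was run on all genes whose values are printed here, and only Zfp365 passed. At that rate some genes would be expected to pass by chance. Zfp365 was the gene with the smallest p among those whose effect was higher in PFC than in striatum, and saline 5 is among the PFC controls of that value.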

How the results depend on the processing

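Against all saline arrays, the count of 0 genes became 2 with no filter, 1 with all probe sets, 1 with the Gapdh ratio as a covariate, 2 with BioB as a block, and 0 to 54 when 1 array was left out. It became 826 against saline 1 to 3 only and 800 with the replicate block, in which numbers 4 and 5 hold only saline, so that this block is by construction a comparison with saline 1 to 3. In both, 8 gene differences reversed: Hba-a3 (-0.0783), Dbp (-0.0400), Homer1 (0.0098), Cdkn1a (0.26), Gad2 (0.16), Drd1 (-0.0405), Adra2a (-0.0177) and Penk (-0.0560). With BioB as a block, Sgk1 (-0.37), Fkbp5 (-0.17) and Clu (0.11) reversed. Only saline arrays span both BioB levels, so this block is by construction the comparison with saline 4 and 5 and no separate check. Against saline 4 and 5, the count of 2 became 1 with quantile normalization, 5 with no filter, 1 with a filter of 60%, 7 with only the arrays compared and 1 with the Gapdh ratio, and it was 1 without any 1 array, where a lone saline array was assumed to vary like the other groups. Hbb passed in all 5 of these runs and Rims1 in 0. Maoa reversed with quantile normalization (-0.0048) and with the Gapdh ratio (-0.0499), as did Pvalb with the Gapdh ratio (-0.0540). The count for naive minus pretreated was 220 with the replicate block, in place of 2, and 1 to 5 with 1 array left out. The block could not be fitted for the comparisons of saline 4 and 5. Those with amphetamine and with striatum stayed at 0 in every setting, the replicate block included, and 441 and 299 genes had an unadjusted p below 0.05 with limma. The saline sets differed in 798 in place of 487 with all probe sets, and in 32 to 339 with 1 array left out. The causes of these moves were not tested.

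Leaving out 1 array reversed small differences, which ranged against all saline arrays from -0.0571 to 0.13 (Adra2a), -0.0645 to 0.16 (Drd1), -0.15 to 0.0215 (Homer1), -0.30 to 0.0380 (Sst), -0.0151 to 0.19 (Penk) and -0.0260 to 0.10 (Pvalb), and against saline 4 and 5 from -0.10 to 0.33 (Adra2a), -0.14 to 0.0501 (Csf1r), -0.0537 to 0.21 (Drd1), -0.49 to 0.15 (Fkbp5), -0.38 to 0.21 (Grik5), -0.0065 to 0.0187 (Maoa), -0.60 to 0.22 (Sst) and -0.10 to 0.14 (Pvalb). Fos against amphetamine ranged from -0.24 to 0.14. Without a change of sign, leaving out 1 array moved 19 of the 74 gene differences from all saline arrays and 26 of the 82 from saline 4 and 5 by over 1.5 times, among them Bdnf (-0.34 to -0.10), Gad2 (-0.46 to -0.0192), Vwf (0.69 to 1.47) and Dcn (0.28 to 0.58) against all. Of 1625 gene values under the other alternatives, 22 reversed. The median standard error was 0.125 against all saline arrays and 0.151 against saline 4 and 5. A difference had to be well above these values to pass the adjusted threshold: Nr2f1, at -0.55 against all saline arrays, did not.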
